A study of Arabidopsis thaliana with 8 samples.

Results

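The genes described here decide which cells of the Arabidopsis thaliana root epidermis make hairs. They are 10 of the 33557 genes in each of the 3 tables and were taken by locus identifier: the homeodomain gene GL2 (AT1G79840), the R2R3 MYB genes WER (AT5G14750) and MYB23 (AT5G40330), the bHLH genes GL3 (AT5G41315) and EGL3 (AT1G63650), the WD40 gene TTG1 (AT5G24520), the single-repeat MYB genes CPC (AT2G46410), TRY (AT5G53200) and ETC1 (AT1G01380), and the receptor-like kinase gene SCM (AT1G11130). All 10 were found, had values above 0 in every group and were tested in every table. RNA came from the last 1 cm of the root in 7-day-old seedlings, all in the Columbia background. There were 2 libraries for each of 4 groups: wild type without ABA (abscisic acid, a stress hormone), wild type given 100 µM ABA for 3 h, the bin2-1 mutant, and the double mutant bzr1-D/bin2-1. Brassinosteroid signalling is repressed by the GSK3-like kinase BIN2, which bin2-1 makes hyperactive. BIN2 holds down the transcription factor BZR1, whose protein is more stable in bzr1-D. Both are alleles of the endogenous genes and not transgenes. The labels do not say whether the mutants received ABA, or whether the library marked as a repeat came from separately grown plants. Each table gives 1 FPKM value per group (a fragment count scaled by transcript length and library size), so no replicate error can stand beside a level. Genes are called changed where the authors' q is under 0.05, and such a q speaks for these libraries only.

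In the Arabidopsis root, epidermal cells that lie over the cleft between cortical cells become hair cells, and the others become non-hair cells. In a non-hair cell WER, or its relative MYB23, joins GL3 or EGL3 and TTG1 in a complex that switches on GL2, and GL2 represses the genes of hair growth. The same complex switches on CPC, TRY and ETC1, small proteins without an activation domain that move to neighbouring cells and take the place of WER in the complex there. SCM carries the positional signal that lowers WER over the cleft. GSK3-like kinases such as BIN2 are known to phosphorylate EGL3 and TTG1, an effect on protein that transcript levels do not measure.

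The 250 bases before the annotated start of GL2, TRY and MYB23 are shown because these members fell at least 2-fold in bin2-1. Sequence and coordinates are from RefSeq's TAIR10.1, written 5′ to 3′ along each gene, with capitals for motif matches.
GL2 (chr1:30036706-30036955, plus strand): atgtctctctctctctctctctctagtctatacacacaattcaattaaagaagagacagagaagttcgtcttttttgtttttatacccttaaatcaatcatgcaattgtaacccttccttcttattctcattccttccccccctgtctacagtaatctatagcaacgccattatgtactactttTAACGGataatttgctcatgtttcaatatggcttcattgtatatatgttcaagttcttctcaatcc
TRY (chr5:21582364-21582613, plus strand): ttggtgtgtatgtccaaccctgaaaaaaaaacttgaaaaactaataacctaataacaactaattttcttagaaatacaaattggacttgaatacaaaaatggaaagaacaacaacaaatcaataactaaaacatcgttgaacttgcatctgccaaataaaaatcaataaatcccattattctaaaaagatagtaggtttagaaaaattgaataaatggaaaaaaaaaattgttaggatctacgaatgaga
MYB23 (chr5:16127475-16127724, plus strand): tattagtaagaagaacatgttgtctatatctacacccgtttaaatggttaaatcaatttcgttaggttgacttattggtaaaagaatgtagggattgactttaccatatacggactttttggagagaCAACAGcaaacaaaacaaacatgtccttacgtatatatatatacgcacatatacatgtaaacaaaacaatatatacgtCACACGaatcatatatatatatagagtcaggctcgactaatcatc
The capitals in GL2 and the first capitals in MYB23 are a MYB core (CNGTTA or CNGTTG on either strand), 66 and 123 bases before the start. The second capitals in MYB23, 45 bases before the start, are a BZR1 element (CGTGTG or CGTGCG on either strand). TRY had no match in this window. In windows that also took in 50 bases after the start, a MYB core was in 4 of the 10 members (GL2, CPC, MYB23 and SCM) and in 46.0% of 27443 protein-coding genes. The BZR1 element was in 1 member and in 8.19% of the genes. The L1 box, a sequence bound by GL2-type proteins (TAAATGTA or TAAATGCA), and the G-box (CACGTG) were in 0 members and in 5.10% and 7.68% of the genes. These motif searches describe letters only, and the members' share of MYB cores was near that of all genes.

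In untreated wild type the members' levels spanned 17.7-fold. TTG1 was highest at 41.2 FPKM, followed by CPC at 23.4, WER at 22.1 and GL2 at 18.2 FPKM. A second tier held SCM at 7.11, TRY at 5.18, EGL3 at 5.05, ETC1 at 4.71 and MYB23 at 4.0 FPKM, and GL3 was lowest at 2.33 FPKM. These differences between genes were not tested. TTG1 stayed the highest member in all 4 groups, while the lowest was GL3 in both wild-type groups, TRY in bin2-1 and MYB23 in bzr1-D/bin2-1. To set the 4 groups side by side, levels here and in the figures are on the scale of the bin2-1 table, since a group found in 2 tables is scaled differently in each (by 1.07 for wild type and 0.959 for bin2-1). Values quoted with a q are as deposited in the table of that comparison.

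**Figure D1:**
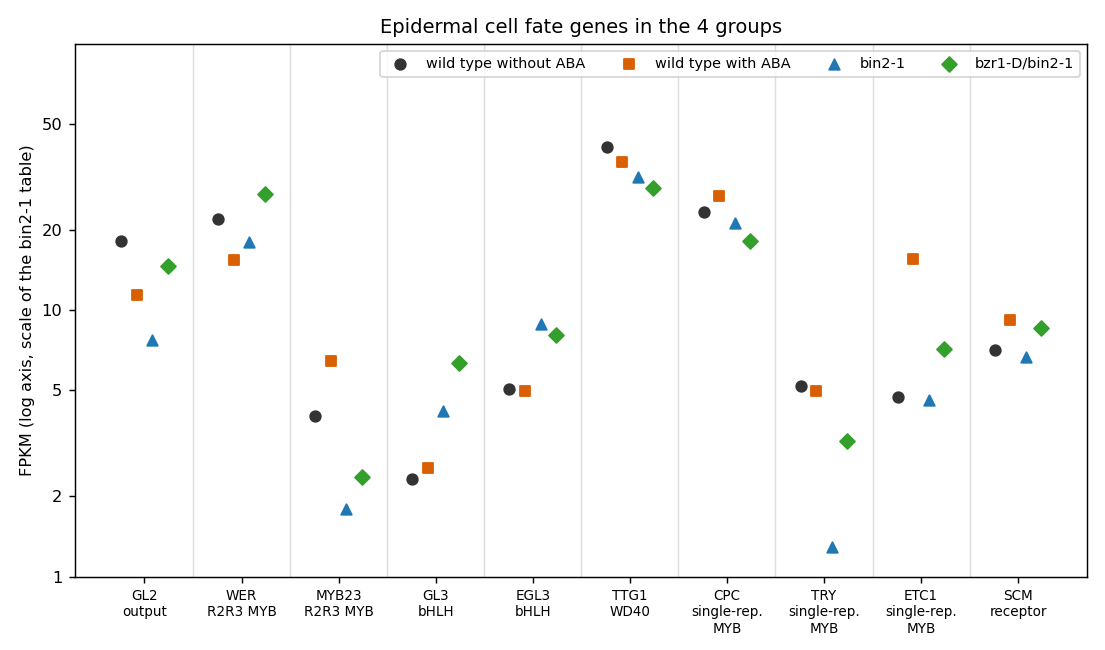
FPKM of the 10 members (log axis) in the 4 groups, 1 authors' value per group, with the other tables put on the scale of the bin2-1 table. GL2 is at 18.2 in untreated wild type, 7.73 in bin2-1 and 14.7 in bzr1-D/bin2-1, TRY drops to 1.29 in bin2-1, and ETC1 reaches 15.5 with ABA.

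With ABA, ETC1 and MYB23 rose and GL2 and WER fell, so 4 of the 10 members changed, beside 24.6% of all 20126 tested genes (15.1% higher and 9.51% lower). In bin2-1 against untreated wild type, EGL3 and GL3 rose and GL2, TRY, TTG1 and MYB23 fell, so 6 of 10 changed, beside 51.0% of 20404 tested genes (25.4% higher and 25.6% lower). In bzr1-D/bin2-1 against bin2-1, GL2, WER, TRY and GL3 rose and 0 members fell, so 4 of 10 changed, beside 24.8% of 20410 tested genes (11.9% higher and 12.8% lower). Taking the authors' p under 0.05 without adjustment, 6 members were higher and 0 lower in this last comparison. Here and in the lists below, the share of all tested genes at an unadjusted p was not counted, so such counts have no background. No other tool could be run on these tables. The members' median log2 fold change was 0.06, -0.22 and 0.50 in the 3 comparisons, beside 0.01, -0.01 and -0.01 over all tested genes. In bin2-1 the share of members called was close to that of all tested genes. The ABA and bin2-1 comparisons share the untreated wild type, and the bin2-1 and bzr1-D comparisons share bin2-1, so their values are not independent of each other.

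**Figure D2:**
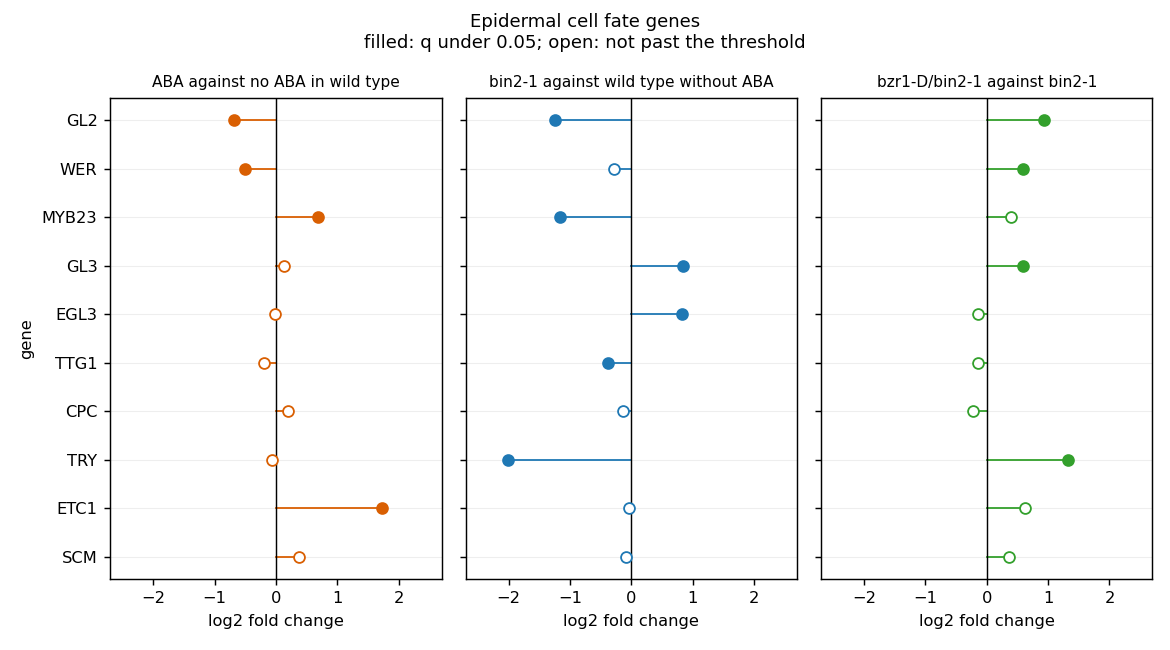
Log2 fold change of each member in the 3 comparisons, from the authors' deposited ratios, with filled points at q under 0.05. In bzr1-D/bin2-1 against bin2-1 the 4 filled points, GL2, WER, TRY and GL3, all lie above 0, between 0.59 and 1.33.

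GL2 is the output of the circuit, the factor that keeps non-hair cells hairless. It had 17.1 FPKM without ABA and 10.7 with ABA (-0.68 on the log2 scale, with q = 0.00612 in the authors' deposited table). In bin2-1 it had 7.73 FPKM against 18.2 in wild type (-1.24, q = 0.000188 in the authors' deposited table). In bzr1-D/bin2-1 it had 15.3 FPKM against 8.05 in bin2-1 (0.93, q = 0.000848 in the authors' deposited table). Its order from low to high was therefore bin2-1, ABA-treated wild type, bzr1-D/bin2-1 and untreated wild type. The sum of the last 2 log2 fold changes puts bzr1-D/bin2-1 at -0.31 against wild type, or 80.5% of the wild-type level, where bin2-1 stood at 42.4%; the sum has no test.

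The R2R3 MYB genes WER and MYB23 encode related activators of GL2, and MYB23 is itself a target of the WER complex. WER went from 20.7 to 14.5 FPKM after ABA treatment (-0.51, q = 0.0284 in the authors' deposited table), while MYB23 went from 3.75 to 6.04 FPKM (0.69, q = 0.00663 in the authors' deposited table). ABA thus lowered the more abundant activator and raised the less abundant one. In bin2-1 it was MYB23 alone that passed. It fell to 1.79 from 4.0 FPKM (-1.16, q = 0.000188 in the authors' deposited table), and WER had 18.1 against 22.1 FPKM without passing (-0.29, q = 0.154). With bzr1-D added, WER rose from 18.8 to 28.4 FPKM (0.59, q = 0.00192 in the authors' deposited table), and MYB23 had 2.46 against 1.87 FPKM without passing (0.40, q = 0.281). WER in bzr1-D/bin2-1 was at 124% of wild type and MYB23 at 59.0%, by the sums of log2 fold changes, which have no test. WER exceeded MYB23 5.51-fold in untreated wild type, 2.40-fold with ABA, 10.1-fold in bin2-1 and 11.5-fold in bzr1-D/bin2-1.

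The bHLH genes GL3 and EGL3 encode the partners that bind both the MYB proteins and TTG1. With ABA neither passed: GL3 had 2.18 and 2.40 FPKM (q = 0.744 in the authors' deposited table) and EGL3 had 4.73 and 4.67 FPKM (q = 0.963). Both rose in bin2-1 by nearly the same factor. EGL3 went from 5.05 to 8.92 FPKM (0.82) and GL3 from 2.33 to 4.20 FPKM (0.85), each at q = 0.000188 in the authors' deposited table. In bzr1-D/bin2-1 they parted. GL3 rose further, from 4.37 to 6.60 FPKM (0.59, q = 0.00772 in the authors' deposited table), while EGL3 had 9.30 and 8.41 FPKM (-0.14, q = 0.579), and the difference between the genes was not tested. GL3 thus stood lowest in untreated wild type and highest in bzr1-D/bin2-1, at 272% of wild type by the sum of log2 fold changes, and EGL3 stood at 160%. EGL3 exceeded GL3 2.17-fold in wild type and 1.27-fold in bzr1-D/bin2-1. The longest exact stretch that their coding sequences share is 38 bases, the longest for any pair of members. Reads that fall wholly within it could be counted for either gene, and whether any were that short was not checked.

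TTG1, the WD40 scaffold of the complex, passed in 1 comparison. It fell in bin2-1 from 41.2 to 31.8 FPKM (-0.37, q = 0.0233 in the authors' deposited table). It had 38.6 FPKM without ABA and 33.7 FPKM after treatment (-0.19, q = 0.424 in the authors' deposited table), and 33.2 and 30.0 FPKM in bin2-1 and bzr1-D/bin2-1 (-0.14, q = 0.536). Beside the summed bHLH genes, TTG1 had 5.59 times their FPKM in wild type, 2.42 times in bin2-1 and 2.00 times in bzr1-D/bin2-1.

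The single-repeat MYB genes CPC, TRY and ETC1, whose proteins inhibit the complex in future hair cells are taken in turn. CPC, the main one in roots, passed in no comparison: it had 22.0 FPKM without ABA and 25.2 FPKM after treatment (q = 0.508 in the authors' deposited table), 23.4 FPKM in wild type and 21.2 in bin2-1 (q = 0.519), and 22.1 and 19.0 in bin2-1 and bzr1-D/bin2-1 (q = 0.423). TRY had 4.86 FPKM without ABA and 4.67 FPKM after treatment (q = 0.925 in the authors' deposited table). It fell in bin2-1 from 5.18 to 1.29 FPKM (-2.00, q = 0.000522 in the authors' deposited table), the largest change of any member in any comparison without a pseudocount. With a pseudocount of 1 FPKM this change was -1.43, and the rise of ETC1 with ABA was larger, at 1.52. With bzr1-D added TRY rose from 1.35 to 3.38 FPKM (1.33, q = 0.0125 in the authors' deposited table), which leaves it at 62.5% of wild type by the sum. ETC1 was the member raised most by ABA, from 4.42 to 14.6 FPKM (1.72, q = 0.000385 in the authors' deposited table). In bin2-1 ETC1 had 4.60 against 4.71 FPKM (-0.03, q = 0.938 in the authors' deposited table). With bzr1-D added it had 7.43 against 4.80 FPKM without passing (0.63, q = 0.0756 in the authors' deposited table).

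The 3 inhibitor genes therefore made up their summed level in different proportions. In untreated wild type CPC held 70.3% of the summed 33.3 FPKM, TRY 15.6% and ETC1 14.1%. With ABA the sum was 47.3 FPKM, of which ETC1 held 32.8%. In bin2-1 the sum was 27.1 FPKM and TRY held 4.77%. In bzr1-D/bin2-1 the sum was 28.6 FPKM, with TRY at 11.3% and ETC1 at 24.9%. The summed inhibitors exceeded the summed R2R3 MYB activators 1.28-fold in untreated wild type, 2.16-fold with ABA and 1.36-fold in bin2-1, and in bzr1-D/bin2-1 the ratio was 0.965. The sums depend on which inhibitors enter. With CPL3, an inhibitor of the CPC type that is not among the 10 members, added after these values were seen, the ratios were 1.84, 3.24, 1.44 and 1.37 in the same order, so that bin2-1 stood below wild type and bzr1-D/bin2-1 no longer below 1. These are ratios of transcript levels over whole root tips, with no test.

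**Figure D3:**
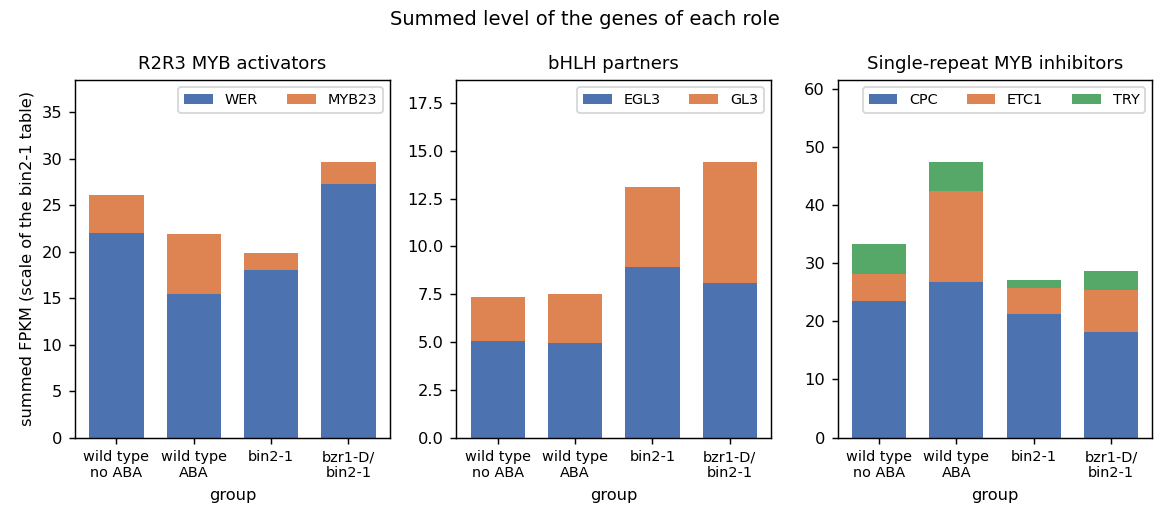
Summed FPKM of the R2R3 MYB genes, the bHLH genes and the single-repeat MYB genes in the 4 groups, on the scale of the bin2-1 table, each axis starting at 0. The bHLH sum is 7.37 in untreated wild type and 13.1 in bin2-1, and the single-repeat MYB sum is highest with ABA, at 47.3.

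Other single-repeat MYB genes were read from a list of 5. ETC2, TCL1 and TCL2, which act mainly in leaf and stem trichomes, were listed at 0 in every group. CPL3 (also named ETC3) rose with ABA from 13.7 to 22.1 FPKM (0.69, q = 0.0437 in the authors' deposited table). CPL3 fell in bin2-1 from 14.6 to 1.40 FPKM (-3.38, q = 0.00169 in the authors' deposited table) and rose in bzr1-D/bin2-1 from 1.46 to 12.6 FPKM (3.11, q = 0.00497). MYBL2, an inhibitor of related complexes of the flavonoid pathway, fell in bin2-1 from 9.73 to 0.921 FPKM (-3.40, q = 0.000188 in the authors' deposited table) and rose in bzr1-D/bin2-1 from 0.959 to 3.65 FPKM (1.93, q = 0.000451). With ABA MYBL2 had 9.13 and 12.2 FPKM (q = 0.112 in the authors' deposited table). Like TRY, both genes were low in bin2-1 and higher with bzr1-D. MYBL2 was under 1 FPKM in bin2-1, and its calls in bin2-1 and with bzr1-D drop out once genes under 1 FPKM are left out.

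SCM passed in no comparison. It had 6.67 FPKM without ABA and 8.65 FPKM after treatment (0.37, q = 0.0854 in the authors' deposited table), 7.11 FPKM in wild type and 6.68 in bin2-1 (-0.09, q = 0.651), and 6.96 and 8.95 in bin2-1 and bzr1-D/bin2-1 (0.36, q = 0.0645). Around it, a list of 11 upstream inputs had 10 tested genes. Of these, 2 rose and 1 fell with ABA, 3 rose and 1 fell in bin2-1, and 0 rose and 2 fell in bzr1-D/bin2-1. In bzr1-D/bin2-1 an unadjusted p under 0.05 gave 0 higher and 3 lower, with no background counted. Thus 3, 4 and 2 of the 10 were called, beside 24.6%, 51.0% and 24.8% of all tested genes, shares near or below that background. ZFP5, a zinc finger factor that promotes CPC and root hairs, rose with ABA from 2.73 to 18.2 FPKM (2.74, q = 0.000385 in the authors' deposited table). ZFP5 also rose in bin2-1, from 2.91 to 8.38 FPKM (1.52, q = 0.000188 in the authors' deposited table), and fell with bzr1-D from 8.73 to 6.29 FPKM (-0.47, q = 0.0373). WRKY75, a repressor of root hairs and of CPC, rose after ABA treatment (0.77, q = 0.000385 in the authors' deposited table), fell in bin2-1 (-0.71, q = 0.000188) and fell again with bzr1-D, from 33.2 to 13.6 FPKM (-1.29, q = 0.000451). JKD, a zinc finger factor of the cortex that feeds the positional signal, fell with ABA from 18.0 to 12.5 FPKM (-0.52, q = 0.00814 in the authors' deposited table).

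TTG2, a WRKY factor and a further direct target of the complex, was also read. It had 11.2 FPKM without ABA and 12.7 FPKM after treatment (q = 0.525 in the authors' deposited table). It fell in bin2-1 from 11.9 to 3.43 FPKM (-1.80, q = 0.000188 in the authors' deposited table) and rose in bzr1-D/bin2-1 from 3.58 to 5.10 FPKM (0.51, q = 0.0451). TTG2 was thus lowest in bin2-1, as GL2 was.

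Downstream of GL2 stand the bHLH factors of hair growth, which GL2 represses in non-hair cells. Of 8 such genes, 4 rose and 3 fell in bin2-1, or 87.5% beside 51.0% of all tested genes. RSL4, which sets hair length, rose from 6.63 to 26.8 FPKM (2.01, q = 0.000188 in the authors' deposited table), and RSL1, an early hair factor, from 0.932 to 3.26 FPKM (1.81, q = 0.000188). RHD6, a close relative of RSL1, rose from 31.1 to 44.7 FPKM (0.52, q = 0.00141 in the authors' deposited table). RSL2 fell instead, from 11.8 to 2.65 FPKM (-2.15, q = 0.000188 in the authors' deposited table), and RSL3 from 0.892 to 0.138 FPKM (-2.69, q = 0.0183).

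With ABA, 1 of the 8 rose, LRL1 (0.46, q = 0.0119 in the authors' deposited table), and 2 fell. RSL2 had 11.0 and 3.23 FPKM (-1.77) and RSL4 had 6.22 and 3.17 FPKM (-0.97), each at q = 0.000385 in the authors' deposited table. The 3 make up 37.5% of the list, beside 24.6% of all tested genes. GL2 was lower in both comparisons, while RSL4 was lower with ABA and higher in bin2-1. In bzr1-D/bin2-1 against bin2-1, 7 of the 8 were tested, and RHD6 fell (-0.54, q = 0.00257 in the authors' deposited table) and RSL1 rose (0.74, q = 0.0176). These 2 make up 28.6% of the 7, near the 24.8% of all tested genes. RSL4 stayed near its bin2-1 level, with 27.9 and 26.7 FPKM (q = 0.828 in the authors' deposited table).

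Of 12 root hair cell markers, 7 rose and 3 fell in bin2-1, or 83.3% beside 51.0% of all tested genes, led by the expansin gene EXPA7, from 18.4 to 89.6 FPKM (2.28, q = 0.000188 in the authors' deposited table), and COBL9, a gene of hair tip growth, from 12.7 to 36.9 FPKM (1.54, q = 0.000188). RHS13 fell from 308 to 131 FPKM (-1.23, q = 0.000188 in the authors' deposited table). RHS13 was the most abundant marker in wild type, and the summed level of the 12 was 861 FPKM in wild type and 769 FPKM in bin2-1, while the list's median log2 fold change was 0.54. With ABA 0 markers rose and 4 fell in the authors' test. At an unadjusted p under 0.05 the counts were 0 and 6, with no background counted. The 4 called make up 33.3% of the list, beside 24.6% of all tested genes (9.51% lower). RHD2, the NADPH oxidase of hair tips, fell from 21.4 to 9.44 FPKM (-1.18, q = 0.000385 in the authors' deposited table), and RHS13 from 289 to 192 FPKM (-0.59, q = 0.000385). With bzr1-D added, LRX1 (-0.40, q = 0.0187 in the authors' deposited table) and RHS10 (-0.55, q = 0.000451), both wall-associated genes, were the 2 of 12 that fell, and 0 rose, also at an unadjusted p under 0.05. The 2 make up 16.7% of the list, below the 24.8% of all tested genes.

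**Figure D4:**
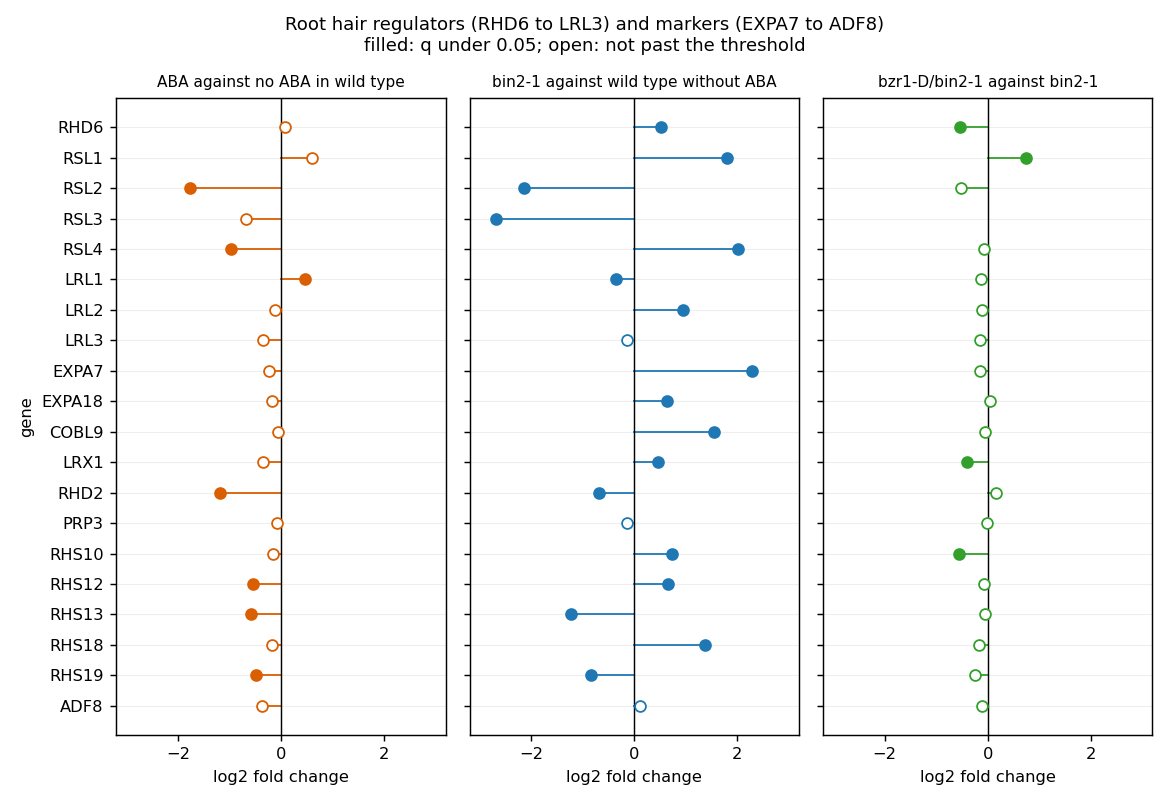
Log2 fold change of 8 root hair bHLH regulators and 12 root hair cell markers in the 3 comparisons, from the authors' deposited ratios, with filled points at q under 0.05; RSL3 was not tested in the third. In bin2-1 RSL4 and EXPA7 lie at 2.01 and 2.28 and RSL2 at -2.15, while in bzr1-D/bin2-1 4 points are filled.

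The tissue can also change its make-up, and in bulk RNA fewer cells of a type and less RNA per cell cannot be told apart. Markers of a tissue often moved in opposite directions, so their sums are given with the genes that changed. The 4 markers of the root cap, a tissue in which WER is also expressed, summed to 29.3 and 22.6 FPKM without and with ABA, 31.2 and 34.7 in wild type and bin2-1, and 36.2 and 57.2 in bin2-1 and bzr1-D/bin2-1. After ABA treatment, where WER fell, SMB fell (-0.71, q = 0.000385 in the authors' deposited table) while BRN1, BRN2 and FEZ did not pass (-0.17, 0.01 and -0.79). In bin2-1, where WER did not pass, all 4 changed, in opposite directions, beside 51.0% of all tested genes. BRN1 (1.64, q = 0.000188 in the authors' deposited table) and FEZ (0.75, q = 0.0351) rose, and SMB (-0.71, q = 0.000188) and BRN2 (-0.47, q = 0.0355) fell. In bzr1-D/bin2-1, where WER rose, BRN1 and BRN2 rose (0.66 and 1.04, q = 0.000848 and 0.000451 in the authors' deposited table) and SMB and FEZ did not pass (0.39 and 0.38).

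The 5 meristem markers summed to 47.2 and 52.9 FPKM, 50.3 and 53.7, and 56.0 and 63.1 in the same pairs, with KNOLLE, a gene of cell division, as the most abundant. WOX5, the factor of the quiescent centre, rose with ABA from 1.82 to 4.47 FPKM (1.29, q = 0.00320 in the authors' deposited table). In bin2-1 WOX5 rose from 1.94 to 10.7 FPKM (2.46, q = 0.000188 in the authors' deposited table) and PLT2, a factor of the stem cell niche, rose from 1.93 to 5.12 FPKM (1.41, q = 0.000188), while KNOLLE fell (-0.49, q = 0.00442). In bzr1-D/bin2-1 PLT1, a relative of PLT2, rose from 3.31 to 8.14 FPKM (1.3, q = 0.000451 in the authors' deposited table) and WOX5 fell from 11.2 to 4.06 FPKM (-1.46, q = 0.000451).

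CO2, a marker of the cortex, fell in bin2-1 from 18.3 to 1.44 FPKM (-3.66, q = 0.000188 in the authors' deposited table) and rose with bzr1-D (1.60, q = 0.000451). The 3 endodermis markers summed to 204 and 241, 217 and 144, and 150 and 214 FPKM, most of it CASP1, a gene of the Casparian strip. With ABA CASP1 rose (0.42, q = 0.0362 in the authors' deposited table), while the endodermal regulators SCR (-0.52, q = 0.00688) and MYB36 (-0.64, q = 0.00138) fell. In bin2-1 CASP1 (-0.71) and MYB36 (-0.65) fell, each at q = 0.000188 in the authors' deposited table. With bzr1-D CASP1 rose (0.71, q = 0.000451 in the authors' deposited table) and MYB36 fell (-0.61, q = 0.00225).

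The 5 stele markers summed to 77.7 and 108, 82.9 and 85.9, and 89.5 and 109 FPKM. With ABA SUC2, a sucrose transporter gene of the phloem, rose from 33.9 to 69.7 FPKM (1.04, q = 0.000385 in the authors' deposited table) and VND7, a xylem vessel factor, rose from a low level (1.04, q = 0.0148), while the phloem factor APL fell (-0.49, q = 0.0152). In bin2-1 WOL, a cytokinin receptor gene, rose (1.04, q = 0.000188 in the authors' deposited table) and APL fell (-0.51, q = 0.00290). With bzr1-D SUC2 rose (0.49, q = 0.00380 in the authors' deposited table). The 4 green tissue markers summed to at most 13.0 FPKM. Of these, LHCB1.3 rose in bin2-1 from 1.40 to 4.93 FPKM (1.81, q = 0.000188 in the authors' deposited table) and LHCA1 in bzr1-D/bin2-1 from 3.10 to 5.22 FPKM (0.75, q = 0.00289). None of the tissue markers in these lists was at 0 in any group. The part of tissue make-up in the members' changes was not tested.

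The genes of the mutant alleles gave no check of genotype, since both alleles change the protein. BIN2 fell in bin2-1 (-0.63) and BZR1 fell too (-1.07), each at q = 0.000188 in the authors' deposited table. With bzr1-D, BZR1 fell again (-0.40, q = 0.0247 in the authors' deposited table), and BIN2 did not pass (0.08, q = 0.734).

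The 5 genes most like GL2, by distance over the 3 log2 fold changes among 12165 genes with at least 5 FPKM throughout, were MEE51, a glycolytic enzyme subunit gene, XTH5, a wall-modifying enzyme gene, AT1G27210, LNG2, a gene of cell elongation, and RALF1, which encodes a secreted growth-inhibiting peptide. Their distances from GL2 ran from 0.192 to 0.230 on the log2 scale, over 4 groups. RALF1 had 186 and 116 FPKM without and with ABA, 198 and 98.2 in wild type and bin2-1, and 102 and 191 in bin2-1 and bzr1-D/bin2-1. Of the other members only WER, CPC, TTG1 and SCM were in that ranking, since TRY, MYB23, ETC1, EGL3 and GL3 were under 5 FPKM in some group. Among those ranked, WER was nearest to GL2, at a distance of 1.02 and rank 771. A few groups leave many genes with similar patterns, and likeness over them carries no test.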

How the data were processed

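TruSeq mRNA libraries from 8 root samples (seedlings grown at 22 °C, 16 h light and 8 h dark) were sequenced on a HiSeq2000 with 6 libraries per pool, per the labels' protocols. Reads were processed with TopHat and Cufflinks on TAIR10, per the submitters' processing notes; their versions, the strand setting and the annotation were not given in the sources used here. The authors deposited 3 tables with 1 FPKM value per group, their ratio (fold change), and a p-value and q-value per gene. The column headers name only the groups, and the values were read as FPKM because the notes name Cufflinks. The authors' test is not named, and per-library values and depth are not used here, so no interval can be given. The smallest deposited p-value, 5e-05, was given to 2612 genes with ABA, 5421 genes in bin2-1 and 2265 genes with bzr1-D.

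Log2 fold changes are the log2 of the deposited ratio, without a pseudocount. A gene counts as tested where the p-value is below 1. Genes are called at a deposited q-value under 0.05 over the whole table. For bzr1-D/bin2-1 against wild type, the log2 fold changes of 2 tables were added. Recomputed adjustments were tested on simulated data. Tools were Python 3.11.15, pandas 2.3.3 and numpy 2.4.6. The members, 13 gene lists of 74 genes and the motifs were chosen with earlier results of these data known. The text names all members, the 2 members of a list with the largest called change in each comparison, and the 5 genes nearest to GL2; list members and comparisons outside this rule, such as JKD, LRL1, KNOLLE and RSL4 in 2 comparisons, were named after their values were seen. RefSeq's TAIR10.1 gave symbols, gene positions and sequence. Its nuclear chromosomes are those of TAIR10, while its gene starts may differ from the annotation the authors used. In it, GL2 overlaps a protein-coding gene on the other strand and a noncoding gene, by at most 198 bases. GL3 overlaps a noncoding gene by 36 bases and ETC1 a protein-coding gene by 2. Whether reads of these neighbours entered the levels of GL2, GL3 or ETC1 was not checked. A further gene is not reported here.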

Additional observations from a re-analysis of the deposited data

How the results depend on the processing

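Recomputing the adjustment and leaving out genes under 1 FPKM in either group left every member's call as reported in all 3 comparisons. Centring on the median (a shift of at most 0.021 on the log2 scale) and adding a pseudocount of 1 FPKM kept the authors' calls by construction. Centring left every member's direction as reported, and a pseudocount cannot change a direction. With at least 2-fold required, 1 member was called with ABA in place of 4 (ETC1), 3 in place of 6 in bin2-1 (GL2, TRY and MYB23), and 1 in place of 4 with bzr1-D (TRY). Of all tested genes, 2236 of 20126, 4266 of 20404 and 1795 of 20410 were called at 2-fold in the same order. At q under 0.01 the counts were 3, 5 and 3, with WER, TTG1 and TRY lost in turn. Over all tested genes the counts at that threshold were 3689, 8189 and 3509. The bHLH regulators had 1, 4 and 0 called at 2-fold in place of 3, 7 and 2, and the hair markers 1, 4 and 0 in place of 4, 10 and 2. At q under 0.01 the bHLH regulators had 2, 5 and 1 called in place of 3, 7 and 2, and the hair markers 4, 10 and 1 in place of 4, 10 and 2. Requiring fewer calls is the construction of both settings. Without genes under 1 FPKM in either group, the bHLH regulators had 5 called in place of 7 in bin2-1, with RSL1 and RSL3 left out. Over all 13 lists, 23 of 39 counts moved by over 1.5 times at 2-fold, 9 at q under 0.01 and 3 with the FPKM filter. The 10 sums for bzr1-D/bin2-1 against wild type moved by at most 0.00068 when the tables were scaled by the shared group. So small a shift follows from the scaling, since the factor of 0.959 for bin2-1 was nearly the same across genes. The 5 genes most like GL2 were the same at a minimum of 1 FPKM. Leaving out a library was not run, since each group has 1 value. No paired analysis was possible because the tables hold no values per library.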

Other observations

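TTG1 also works in complexes that switch on the anthocyanin pathway, with partners other than WER. Of 7 genes listed as other partners or targets of complexes with TTG1, of this or another pathway and TTG2 included, 6 were not tested in any table: GL1, TT8, TT2, PAP1, PAP2 and MYB5 had at most 0.112 FPKM in any group. Among 5 listed genes of the flavonoid pathway, DFR, LDOX and BAN were not tested either. UF3GT, a glycosyltransferase gene of the pathway, fell in bin2-1 from 3.83 to 0.0338 FPKM (-6.82, q = 0.0374 in the authors' deposited table). UF3GT did not pass after ABA treatment (q = 0.231 in the authors' deposited table) and was not tested with bzr1-D, where it had 0.0353 and 0.412 FPKM. The F3'H gene (TT7), which hydroxylates flavonoids, rose in bin2-1 from 0.610 to 1.04 FPKM (0.77, q = 0.0469 in the authors' deposited table). Neither of these calls in bin2-1 remained at q under 0.01 or without genes under 1 FPKM in either group.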
